A study of Mus musculus with 6 samples.

Results

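The miR-126 locus was followed through small RNA sequencing of the nucleus accumbens (NAc), a reward region of the forebrain, in mice trained with morphine or saline. Its members were the rows of the deposited count table whose names start with mmu-miR-126a- or mmu-miR-126b-, and 4 of 1364 rows met this rule: mmu-miR-126a-3p, mmu-miR-126a-5p, mmu-miR-126b-5p and mmu-miR-126b-3p. The prefix mmu, for mouse, is left out from here on. All 4 had counts and entered the test. Adult male C57BL/6N mice, 7 to 8 weeks old, went through conditioned place preference (CPP), in which a drug is paired with a compartment. The morphine group received 10 mg/kg morphine in paired sessions, alternating with saline sessions, for 6 days, and the saline group received saline in its sessions. The test was on day 7, and tissue was taken 0.5 h later. There were 3 libraries per group. The design text of the series gives 6 mice per group, while a legend of the study names 3. The number of mice in a library is thus not settled, and the p-values below measure only the spread between these libraries.

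Endothelial cells, the lining of blood vessels, are the best known source of miR-126. The miRNA lies within Egfl7, which encodes a protein secreted by endothelium, and it is known for its part in vessel growth and in signalling by vascular endothelial growth factor. A miRNA hairpin is cut into a 5p and a 3p arm, and the arm that is loaded into Argonaute pairs with mRNAs mainly through its seed, bases 2 to 8. For miR-126 both arms are known to be used, and the 3p arm is usually the more abundant. miR-126b is the name given to arms read from the opposite DNA strand of the same locus.

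The mature sequences below are shown because 2 pairs of the members are close to reverse complements of each other, which bears on how their counts can be read. They come from RefSeq (GRCm38.p6), which matched 3 of the 4 members, and the seed is in capitals. miR-126a-5p had no entry there and is named only.
miR-126a-3p: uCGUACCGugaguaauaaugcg
miR-126b-5p: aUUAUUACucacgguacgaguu
miR-126b-3p: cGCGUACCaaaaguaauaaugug
None of the 3 seeds was shared with another mature miRNA of the RefSeq table (0 others for each). The seeds of miR-126a-3p and miR-126b-3p have a run of 6 bases in common. miR-126a-3p lies at chr2:26591402-26591423 on the plus strand, and miR-126b-5p lies at chr2:26591399-26591420 on the minus strand. They overlap by 19 bases, all complementary, and each extends past the overlap by 3 bases at its 3′ end. miR-126b-3p lies at chr2:26591363-26591385 on the minus strand.
The hairpin gene Mir126a (chr2:26591357-26591429, plus strand, 73 bases) holds both places. In its sequence the first capitals are the bases opposite miR-126b-3p, on the arm that gives miR-126a-5p, and the second capitals are miR-126a-3p.
Mir126a: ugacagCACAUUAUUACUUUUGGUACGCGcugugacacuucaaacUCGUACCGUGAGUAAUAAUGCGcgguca
The Mir126b hairpin (chr2:26591363-26591420, minus strand, 58 bases) is the exact reverse complement of a part of this sequence. In the GENCODE vM21 annotation of GRCm38, 9 transcripts of Egfl7 (chr2:26580014-26593120, plus strand) span the Mir126a hairpin. It lies in an intron of 8 of them and overlaps an exon of 1. The positions are those of the annotation, since the deposited table gives none.

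**Figure D1:**
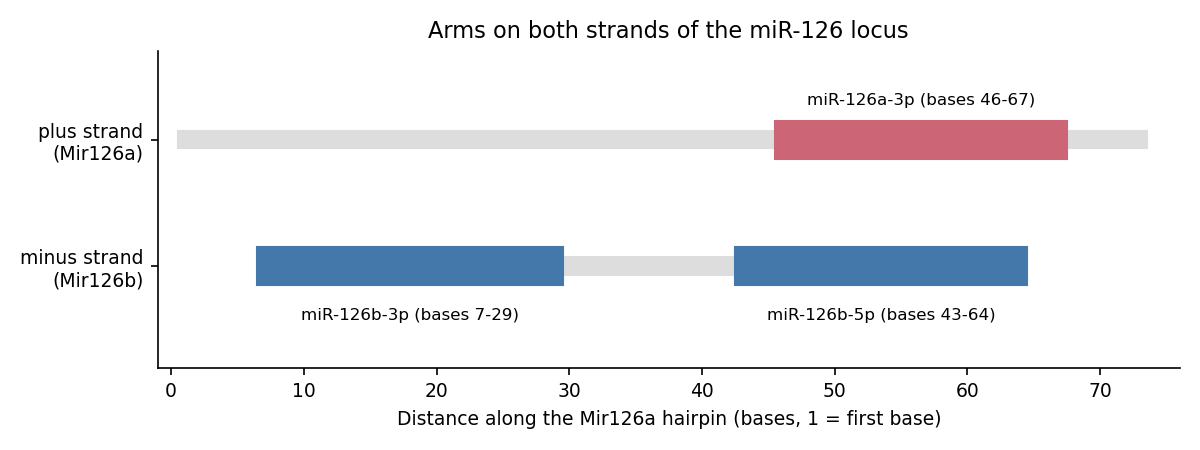
The plot maps the RefSeq arms on the miR-126 locus, with distance in bases from the start of the Mir126a hairpin on the horizontal axis and the DNA strand on the vertical axis; grey bars are hairpins and coloured boxes are mature arms. miR-126a-3p and miR-126b-5p cover each other over 19 bases, and miR-126a-5p is not drawn because the table holds no position for it.

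The total count was between 4183333 and 9842050 per library. Levels are counts per M counts of the library (CPM) after TMM scaling, a method of edgeR that allows for a few abundant miRNAs taking up the depth. Saline replicate 2 stood apart from the other saline libraries. Without it 492 miRNAs met the criteria of the study for a differentially expressed miRNA (DEmiRNA), against 264 with all 6 libraries. These criteria ask for a log2 fold change of 0.58 or more in size with a p, not adjusted, no higher than 0.05. Fold changes, ratios and counts of calls are therefore also given below without saline replicate 2, a choice made for the counts of calls after the data were seen. The tissue was whole NAc, so a change in the number of endothelial cells and a change in miRNA per cell cannot be told apart.

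miR-126a-3p and miR-126b-5p were higher in every morphine library than in every saline library, while miR-126a-5p and miR-126b-3p were not called. By the criteria above, 2 of the 4 members were DEmiRNAs, both upregulated, against 9.68% of all miRNAs called as upregulated and 19.4% called in either direction. With Benjamini-Hochberg adjustment over all miRNAs both had an adjusted p under 0.05, against 3.08% of all miRNAs in that direction. Without saline replicate 2 all 4 members met the unadjusted criteria as upregulated, against 20.9% of the 1328 miRNAs then tested. This library thus moved both the members' count and the background. The counts of miR-126b-3p nearly repeat those of miR-126a-5p, as given below, so the 4 rows are not 4 separate measurements. The share of all miRNAs whose libraries did not overlap between the groups and were higher with morphine was 12.2%.

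miR-126a-3p, the abundant arm, had counts of 8797, 31240 and 13867 in saline replicates 1, 2 and 3 and of 146147, 98837 and 69614 in morphine replicates 1, 2 and 3. Scaled to CPM, the saline libraries stood at 1610, 4685 and 1454, and the morphine libraries at 16168, 14482 and 10932. The lowest morphine library was thus 2.33 times the highest saline library, which was saline replicate 2. With saline the mean was 2583 ± 1822 CPM (SD, n = 3), and with morphine it was 13860.2 ± 2673 CPM (SD, n = 3). This is a log2 fold change of 2.42 with an SE of 0.52 (adjusted p = 0.00818, quasi-likelihood test of edgeR, Benjamini-Hochberg). Ranked by count within each library, miR-126a-3p stood at places 68, 44 and 71 among all rows in the saline libraries and at place 18 in each of the 3 morphine libraries. Leaving out saline replicate 2 gave a log2 fold change of 3.18. Without morphine replicate 1 it was 2.42 with an adjusted p of 0.164 by the same edgeR test, in a fit in which no miRNA of the table had an adjusted p under 0.05 (0 by edgeR, while 176 met the unadjusted criteria).

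miR-126b-5p, the arm opposite miR-126a-3p, was scarce with saline and had 8, 66 and 15 counts in saline replicates 1, 2 and 3. In morphine replicates 1, 2 and 3 it had 1734, 924 and 1006 counts. In CPM the saline libraries stood at 1.46, 9.90 and 1.57 and the morphine libraries at 191.8, 135.4 and 158.0. Every morphine library was at least 13.7 times the highest saline library. It rose by a log2 fold change of 5.23 with an SE of 0.73 (adjusted p = 0.000385 by the same test of edgeR), and its p had rank 1, the smallest, among the 1364 miRNAs tested with all 6 libraries. Among the DEmiRNAs of that fit, 4 rose by a larger log2 fold change. Leaving out saline replicate 2 raised its own to 6.71. Its adjusted p was above 0.05 only without morphine replicate 1, at 0.0711 by the edgeR test. miR-126b-5p and miR-126a-3p overlap on opposite strands, and the sources used here do not state whether the counting kept the strands apart. In 9 of the 18 opposite-strand pairs described below, both rows had near equal counts in every library. Read on the plus strand, miR-126b-5p is the stretch of miR-126a-3p shifted by 3 bases. Whether its row holds reads of the plus strand was not tested. The row therefore cannot be assigned with certainty to transcripts of the minus strand.

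miR-126a-5p, the other arm of the Mir126a hairpin, had 125, 2115 and 291 counts in saline replicates 1, 2 and 3. It had 870, 286 and 333 counts in morphine replicates 1, 2 and 3. The levels were 22.9, 317 and 30.5 CPM against 96.2, 41.9 and 52.3 CPM, so a single saline library lay above all morphine libraries and the remaining saline libraries lay below them. Within the saline group the highest library was 13.9 times the lowest, whereas for miR-126a-3p it was 3.22 times. The fitted log2 fold change of -0.96, with an SE of 0.72 (adjusted p = 0.522 by edgeR), is within the spread between replicates. The direction rested on saline replicate 2. Without it the log2 fold change was 1.25 with an adjusted p of 0.00219 by the same edgeR test, higher with morphine. In that fit 386 of 1328 miRNAs had an adjusted p under 0.05 by edgeR, against 71 of 1364 with all 6 libraries. Without saline replicate 1 or saline replicate 3 the log2 fold changes were -1.36 and -1.33, and both met the unadjusted criteria as downregulated.

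miR-126b-3p, which lies opposite the 5p arm of miR-126a, had the same count as miR-126a-5p in 5 of 6 libraries. In morphine replicate 1 the counts were 868 and 870. Its log2 fold change of -0.96 (SE 0.72, adjusted p = 0.522 by edgeR) is therefore the same measurement and not a separate one, and the 4 rows hold 3 distinct patterns. Like that of miR-126a-5p it changed sign without saline replicate 2, to 1.25 (adjusted p = 0.00222 by edgeR, in the same fit as for miR-126a-5p).

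**Figure D2:**
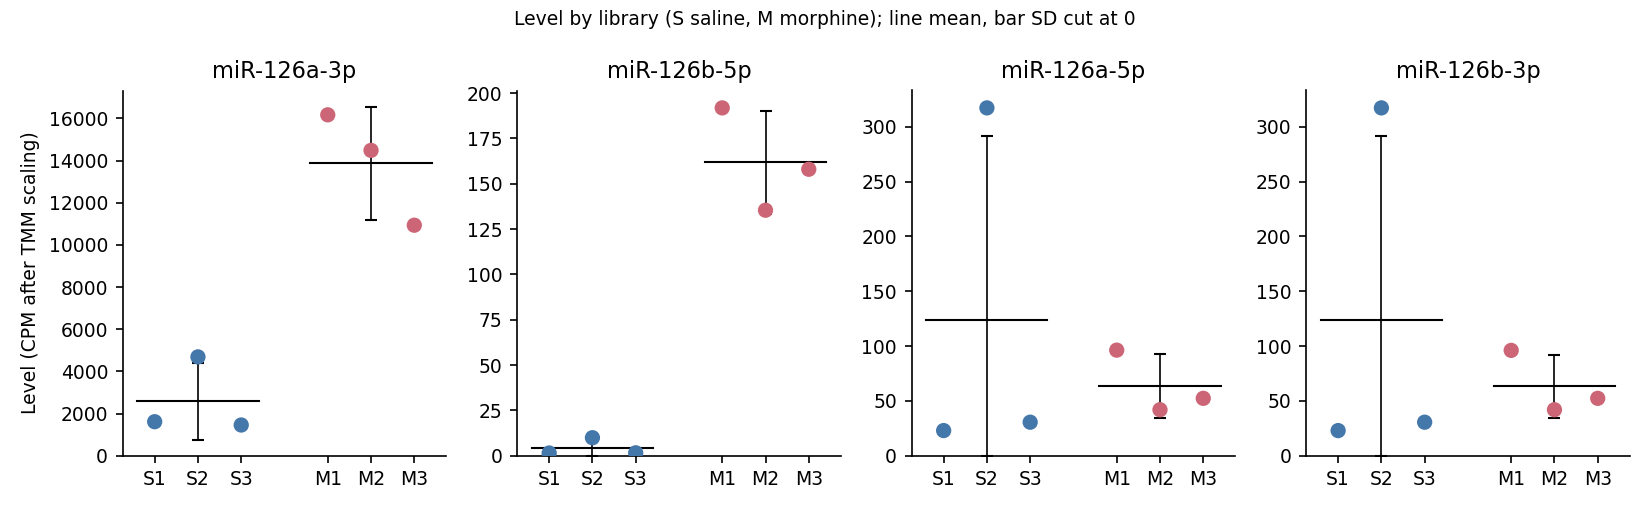
Each panel shows a member of the miR-126 locus, with the level in CPM after TMM scaling on the vertical axis (linear, from 0) and the 3 saline (S1 to S3) and 3 morphine (M1 to M3) libraries on the horizontal axis; points are libraries, horizontal lines group means and bars SD, cut at 0. miR-126a-3p and miR-126b-5p do not overlap between the groups, whereas for miR-126a-5p and miR-126b-3p saline replicate 2, at 317 CPM, lies above all other libraries.

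The ratio between arms was then calculated within each library, since it does not depend on the scaling between libraries. For the arms of the Mir126a hairpin, the 5p arm made up a smaller part with morphine in every library. The count of miR-126a-5p was 1.42%, 6.77% and 2.10% of the count of miR-126a-3p in saline replicates 1, 2 and 3. It was 0.595%, 0.289% and 0.478% in morphine replicates 1, 2 and 3. The saline library nearest to the morphine group was saline replicate 1, where miR-126a-5p took 1.40% of the counts of both arms (95% exact Clopper-Pearson interval 1.17% to 1.67%). The morphine library nearest to the saline group was morphine replicate 1, with 0.592% (0.553% to 0.632%). These intervals treat reads as independent and do not cover the spread between libraries. Reads copied by PCR and not tagged by molecule are not independent, so the intervals may be too narrow even for counting error. The mean log2 ratio went from -5.20 ± 1.17 (SD, n = 3) with saline to -7.84 ± 0.53 (SD, n = 3) with morphine, a difference of -2.65. This gave p = 0.1 in an exact two-sided permutation test, the smallest p that 3 libraries against 3 allow (0.15 after Benjamini-Hochberg adjustment over the 3 ratios). Without saline replicate 2 the difference was -1.99, so the fall of the ratio kept its direction while that of miR-126a-5p itself did not.
Ratios of the 5p to the 3p arm often differed between the groups in this table. Of 117 miRBase hairpins with at least 10 counts for both arms in every library, 31, or 26.5%, had a lower ratio in all morphine libraries than in all saline libraries, and 25, or 21.4%, had a higher one. When saline replicate 2 was left out, these shares were 35.9% and 44.4%. The median difference over the 117 was -0.03 on the log2 scale. The difference of the Mir126a arms was the 4th lowest of them.

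The ratio of miR-126b-5p to miR-126a-3p, arms on opposite strands, moved the other way. miR-126b-5p had 0.0909%, 0.211% and 0.108% of the count of miR-126a-3p in saline replicates 1, 2 and 3, and 1.19%, 0.935% and 1.45% in morphine replicates 1, 2 and 3. Even in saline replicate 1, with only 8 counts, the share of miR-126b-5p in the pair had an exact Clopper-Pearson interval of 0.0392% to 0.179%. That interval lies below the lowest morphine library, at 0.926% (0.868% to 0.988%). Both intervals have the limit given above. The mean log2 ratio was -9.57 ± 0.61 (SD, n = 3) with saline and -6.42 ± 0.31 (SD, n = 3) with morphine. The difference of 3.15 is 8.87-fold, with p = 0.1 in the exact permutation test (0.15 adjusted over the 3 ratios), and was 3.49 without saline replicate 2. The count in the row of miR-126b-5p thus rose by more than that of miR-126a-3p in all comparisons between single libraries of the groups. For miR-126b-3p and miR-126a-5p the mean log2 ratio was 0 with saline and -0.0011 with morphine (exact permutation test, p = 1).

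**Figure D3:**
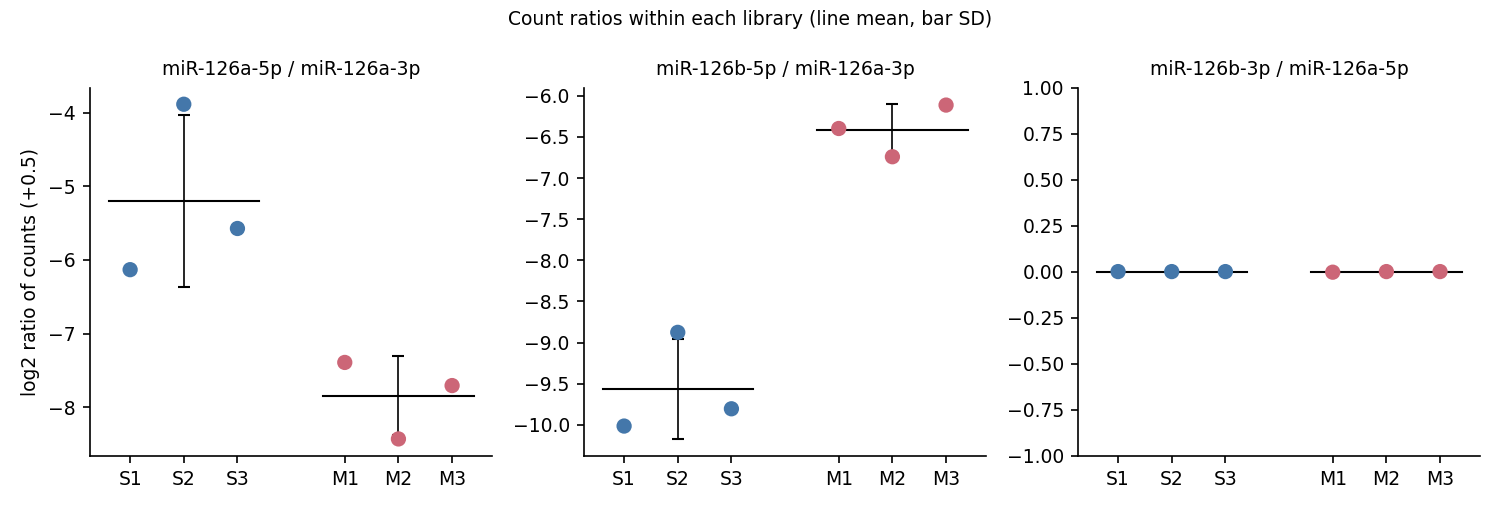
The plot gives log2 ratios of counts within each library, with 0.5 added to each count, for the pairs named above the panels; points are libraries (S saline, M morphine), lines group means and bars SD. The 5p to 3p ratio of miR-126a is lower in all morphine libraries, the ratio of miR-126b-5p to miR-126a-3p is higher in all of them, and the ratio of miR-126b-3p to miR-126a-5p stays at 0 apart from a gap of 2 counts in morphine replicate 1.

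To see whether these relations were particular to miR-126, all miRNAs on opposite strands of a locus were paired by mature sequences with at least 12 complementary bases in a row. With the miR-126 pairs this gave 29 pairs, of which 18 had enough counts (at least 10 in every library for the more abundant arm and 10 in total for the other). In 9 of these 18, or 50%, both arms had near equal counts in every library (a smaller count of 0.9 times the larger or more), as for miR-126b-3p and miR-126a-5p. The 3 most abundant of the other pairs were of this kind: miR-9-5p with miR-9b-3p, miR-129-5p with miR-129b-3p and miR-24-3p with miR-3074-5p. In the remaining 9 pairs, among them miR-126b-5p with miR-126a-3p, the counts differed. In 5 of these 9, or 55.6%, the ratio of the less abundant to the more abundant arm was higher in all morphine libraries. The other 4 of them, named after their values were seen, were miR-9b-5p with miR-9-3p, miR-30f with miR-30e-3p, miR-203b-5p with miR-203-3p and miR-219c-5p with miR-219a-1-3p. The miR-9b-5p pair moved by 4.96 on the log2 scale, more than the miR-126b-5p pair, and 1 pair (miR-3544-3p with miR-337-5p) was lower in all morphine libraries. The ratio was higher in 6 of the 9 pairs and lower in 1 when saline replicate 2 was left out. A higher ratio with morphine was therefore found for a large part of such pairs and not for miR-126 alone.

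**Figure D4:**
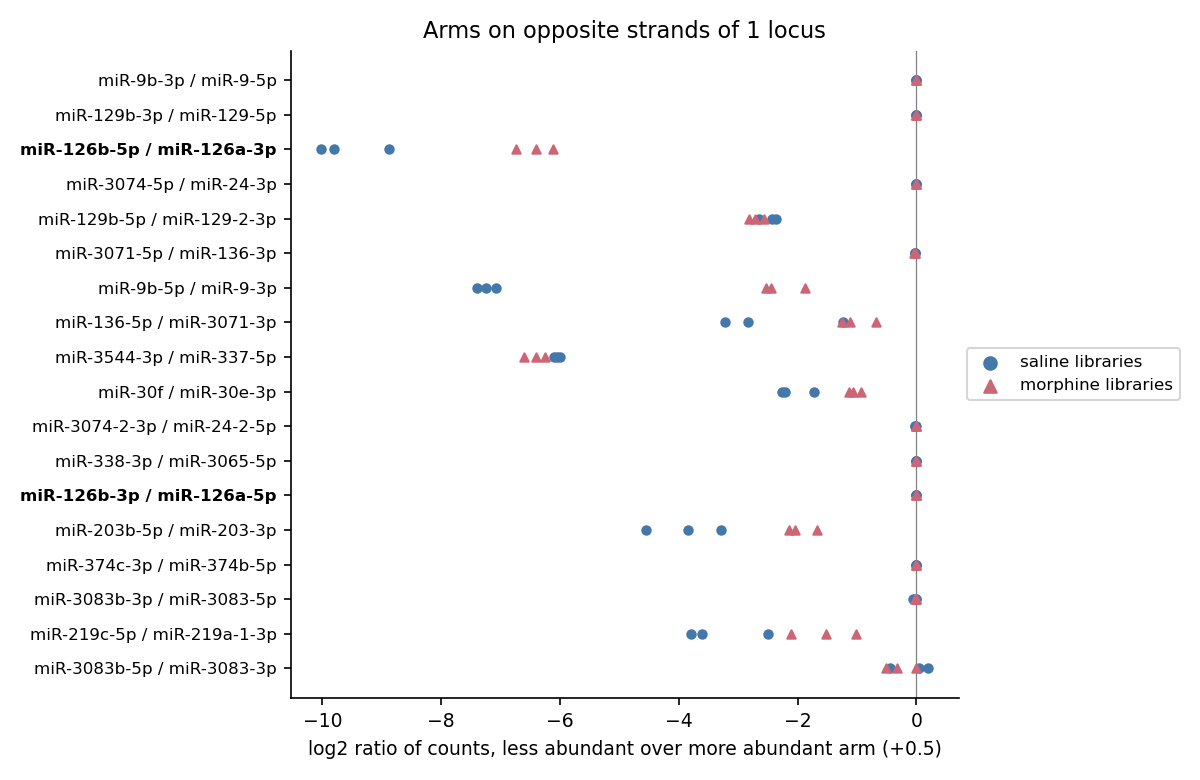
The plot shows the 18 opposite-strand pairs with enough counts, 1 per line from the most abundant at the top; the horizontal axis is the log2 ratio of counts of the less abundant over the more abundant arm (0.5 added), circles are saline and triangles morphine libraries, and the miR-126 pairs are in bold. The pairs at 0 have near equal counts in every library, and miR-126b-5p against miR-126a-3p lies farthest from 0 in the saline libraries.

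Other miRNAs were compared with miR-126 to see what moved beside it. The list of other miRNAs studied in endothelial cells, most of which are made by many cell types, had 37 rows. Of these, 2 rose, 7 fell and 28 were not called, with a median log2 fold change of -0.01 against -0.15 over all miRNAs tested. Over all miRNAs 9.68% were called as higher and 9.68% as lower. Without saline replicate 2 the list had 8 higher and 6 lower of 36 rows, with a median of 0.24, against 20.9% higher and 16.1% lower and a median of 0.20 over all miRNAs. The risen rows, named after their values were seen, were miR-24-1-5p and miR-24-2-5p, passenger arms of miR-24 hairpins, with log2 fold changes of 2.35 and 3.05. The counts of miR-24-2-5p are near equal to those of miR-3074-2-3p on the opposite strand. Among the most abundant rows of the list, miR-221-3p, known for restraining vessel growth through the Kit receptor, fell from 2758 to 1233 CPM (log2 fold change -1.16), while miR-27b-3p and miR-24-3p were not called (0.39 and -0.21). The summed level of the list overlapped between the groups, with 12315 to 14598 CPM in the saline and 10836 to 14114 CPM in the morphine libraries.
Among miRNAs of cells near the vessel wall, the mural list (miR-143 and miR-145a, of smooth muscle and pericytes) had 1 of 4 rows higher and 0 lower, and its sums overlapped. The abundant miR-143-3p was at 11447 ± 6404 CPM (SD, n = 3) with saline and at 8278 ± 4402 CPM (SD, n = 3) with morphine. The fibroblast list (miR-199a, miR-199b and miR-214) had 1 of 5 rows higher, miR-199a-3p with a log2 fold change of 1.86. Its summed level was low but did not overlap, at 14.9 to 32.5 CPM with saline and 49.1 to 129 CPM with morphine. Most of this sum was the called row, miR-199a-3p, with a mean of 15.4 CPM with saline and 56.0 CPM with morphine. Of all single miRNAs, 12.2% were likewise higher with morphine without overlap. The part of the fibroblast list in the rise of miR-126a-3p was not tested. Without saline replicate 2 the mural list had 2 rows higher and 1 lower, and the fibroblast list had 4 of 5 higher and 0 lower. Over all miRNAs 20.9% were then called as higher and 16.1% as lower.
Blood cells can carry miR-126 as well, platelets among them. In the erythroid list 1 of 5 rows was higher (miR-451a, 1.57 on the log2 scale), and the sums overlapped at 264 to 554 CPM with saline and 495 to 719 CPM with morphine. In the leukocyte and microglia list 1 of 8 rows rose (miR-146a-5p, a miRNA induced in inflammation) and 1 fell (miR-150-5p, a lymphocyte miRNA), with log2 fold changes of 2.29 and -2.03. The sums were 456 to 1002 CPM with saline and 967 to 1187 CPM with morphine. In the fit without saline replicate 2 the erythroid list had 1 row higher and 2 lower, and the leukocyte and microglia list 1 higher and 2 lower. Over all miRNAs 20.9% were called as higher and 16.1% as lower in that fit. The part of these lists in the result was not tested.
The neuronal list, which shows that nerve tissue was present, summed to between 136035 and 280663 CPM over all libraries, with 0 of 14 rows higher and 2 lower. The lower rows, named after their values were seen, were miR-124-3p and miR-128-2-5p, with log2 fold changes of -1.88 and -2.19. Mean levels of miR-124-3p were 5796 CPM with saline and 1569 CPM with morphine. The most abundant rows of this list, miR-9-5p and miR-128-3p, were not called (-0.15 and 0.47). The oligodendrocyte list had 0 of 5 rows higher and 1 lower. The lower row, named after its values were seen, was miR-219a-5p, with a log2 fold change of -3.69. Its counts were 15, 426 and 23 in saline replicates 1, 2 and 3. In morphine replicates 1, 2 and 3 they were 36, 5 and 3, so its high saline mean rested on saline replicate 2. In the ependyma and choroid plexus list 1 of 11 rows was higher and 1 lower, with a median log2 fold change of 0.17. Its sum was lower in all morphine libraries (986 to 1083 CPM) than in the saline libraries (1999.5 to 2847 CPM). Most of this sum was the called lower row, miR-204-5p, with a mean of 1896 CPM with saline and 668 CPM with morphine. The muscle list had 0 of 6 rows higher and 1 lower. Without saline replicate 2, where 20.9% of all miRNAs were called as higher and 16.1% as lower, the neuronal list had 3 rows higher and 4 lower. The ependyma and choroid plexus list had 4 higher and 3 lower of 10. The oligodendrocyte and muscle lists then each had 1 higher and 1 lower. These lists hold no marker of the NAc against other forebrain regions, and the dissection itself was not checked.

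Finally, the miRNAs with the profile most like that of miR-126a-3p were sought among the other miRBase miRNAs with at least 10 counts in every library. Likeness was the root mean square difference of log2 levels over the 6 libraries, each profile centred on its own mean. The nearest 5 were miR-344c-3p, miR-3071-3p, miR-455-5p, miR-488-3p and miR-598-3p, with differences of 0.32, 0.34, 0.34, 0.37 and 0.37. Because these 5 were chosen by likeness over the same 6 libraries, the traits they share with miR-126a-3p are largely set by that choice. Like miR-126a-3p, each had its highest saline level in saline replicate 2 and no overlap between the groups. Their log2 fold changes lay between 1.80 and 2.14, below the 2.42 of miR-126a-3p. They lay, without saline replicate 2, between 2.81 and 3.59, on either side of the 3.18 of miR-126a-3p. The nearest, miR-344c-3p, was at 6.96, 43.2 and 6.92 CPM with saline and at 87.1, 85.0 and 79.9 CPM with morphine.

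The fold changes of the members under all processing settings are drawn together below. miR-126a-3p and miR-126b-5p met the unadjusted criteria in every setting that gave them a value, and miR-126a-5p changed sign in 2 settings.

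**Figure D5:**
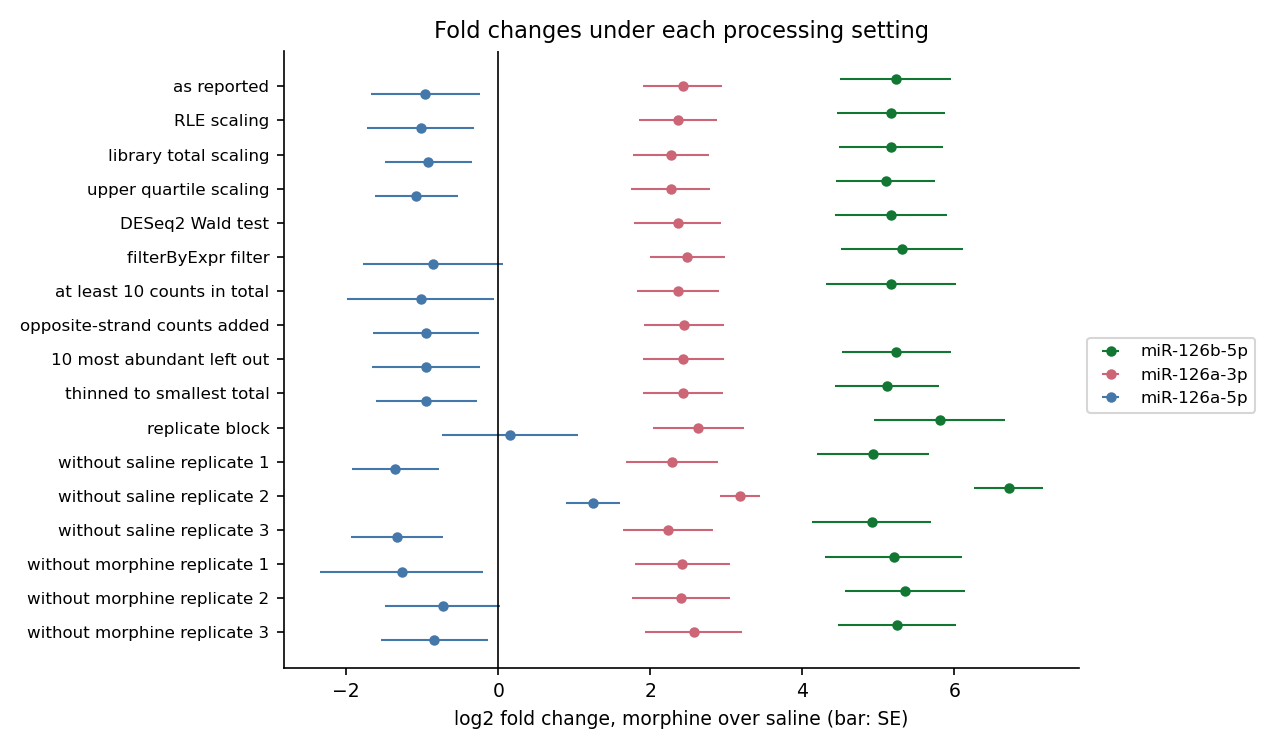
Each line is a processing setting, and the horizontal axis is the log2 fold change of morphine over saline with its SE as a bar, for miR-126b-5p, miR-126a-3p and miR-126a-5p. miR-126a-3p stays between 2.23 and 3.18 and miR-126b-5p between 4.91 and 6.71, whereas miR-126a-5p crosses 0 with the replicate block and without saline replicate 2.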

How the data were processed

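Small RNA libraries from the NAc, 3 saline and 3 morphine, were analysed. The authors cleaned the reads of adapters, undetermined bases and poor quality, used Bowtie to take out ribosomal, transfer and other structural RNAs and repeats, and matched what was left to miRBase. The values deposited by the authors are raw read counts for each mature miRNA and library. TPM values deposited beside them are the counts divided by the total of the library, with no length term, and entered no test. The genome build, the miRBase release and whether strands were kept apart in counting are not given in the sources used here. Groups and replicate numbers came from the sample records, and 0 columns were left unused.

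Differences were tested by quasi-likelihood in edgeR 4.0.16 (R 4.3.3) after TMM scaling, for all 1364 miRNAs with at least 1 count, with 6 libraries and no covariate. Standard errors were derived from the F statistic. Ratios used a pseudocount of 0.5 and exact permutation tests (scipy 1.17.1). Alternatives were RLE, library total and upper quartile scaling, DESeq2 1.42.0, count filters, adding up opposite-strand counts, dropping the 10 most abundant other miRNAs, drawing 4183333 counts from each library, the replicate block and leaving out each library.

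The members and the lists (other endothelial, mural, fibroblast, erythroid, leukocyte and microglia, ependyma and choroid plexus, neuron, oligodendrocyte, muscle) were chosen with earlier results of these data known. Named miRNAs were the members, the 3 most abundant rows of a list at most, the 3 most abundant other opposite-strand pairs and the 5 nearest profiles; others are marked where named. Position and sequence are from GENCODE vM21 and RefSeq. miR-126a-5p had no RefSeq entry and was paired with miR-126b-3p by the hairpin arm.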

Additional observations from a re-analysis of the deposited data

How the results depend on the processing

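miR-126a-3p and miR-126b-5p kept their direction and their call in all 16 and 15 alternatives that gave a value, with log2 fold changes of 2.23 to 3.18 and 4.91 to 6.71. Their adjusted p by edgeR or DESeq2 was under 0.05 in 14 alternatives each, and at most 0.164 and 0.0711. The exceptions were the fit without morphine replicate 1 for both and, for miR-126a-3p, the minimum of 10 counts in total (adjusted p = 0.0588 by edgeR). miR-126a-5p and miR-126b-3p were called as lower with upper quartile scaling (-1.07 and -1.08). With the replicate number as a block they were at 0.15 and 0.15 with no call, and leaving out single libraries gave -1.36 to 1.25 and -1.36 to 1.25. The block changed the sign of these rows and no call of the members. DESeq2 gave no p for these rows. The replicate numbers share no stated batch, and the deviations of same-numbered libraries correlated at -0.23, -0.28 and 0.14 over 899 miRNAs. The number of miRNAs called was 176 to 492 when single libraries were left out, against 264, and 179 with the block. The share of calls that were higher with morphine was 50.0% with TMM, 34.9% with library totals and 37.7% with upper quartile scaling. The ratio of miR-126a-5p to miR-126a-3p differed by -3.11 to -1.99 (log2), and that of miR-126b-5p to miR-126a-3p by 2.92 to 3.49, without single libraries; pairing by replicate number left both differences in place (exact sign-flip p = 0.25, the smallest it allows). The ratio of miR-126b-3p to miR-126a-5p differed by -0.0017 to 0 without single libraries and by 0.014 after thinning. The cause was not tested. With 3 libraries per group the permutation tests cannot pass 0.05, and the 8 to 66 counts of miR-126b-5p in the saline libraries limit its fold change.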
